A study of Mus musculus with 10 samples.

Results

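Oxidative phosphorylation genes were followed in RNA-seq of whole mouse kidneys at embryonic day E13.5. Entries of the deposited table were taken when the gene symbol began with mt-, Nduf, Uqcr, Atp5 or Cox followed by a digit from 4 to 8, or was *Sdha*, *Sdhb*, *Sdhc* or *Sdhd*, and did not carry the ending -ps. This gave 111 of 35663 entries, with 110 distinct symbols because *Atp5o* has 2 entries. Of these, 13 are encoded by the mitochondrial genome, 90 are nuclear entries named after subunits, and 8 are *Ndufaf1* to *Ndufaf8*, which help to assemble complex I and are not parts of it. The nuclear entries *Cox6c2*, *Ndufa11b*, *Ndufb4c* and *Ndufs6b* are annotated as processed pseudogenes and were kept as the rule has them. No mitochondrial rRNA or tRNA was among the entries.

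The kidneys came from 4 wild-type, 3 *Foxd1*-Cre control (Foxd1GC control) and 3 *Foxd1*-Cre; *Ntn1*c/c (Ntn1SPKO) samples, all labelled C57/b6. The Foxd1GC allele makes Cre in stromal progenitors in place of one copy of *Foxd1*, and it is carried by both Foxd1GC control and Ntn1SPKO kidneys but not by wild-type kidneys. *Ntn1* is deleted only in cells with a history of *Foxd1* expression, so all other kidney cells of the Ntn1SPKO keep the gene. RNA of the whole organ was measured, and fewer cells of a type cannot be told apart from less RNA per cell. The legend that covers the RNA-seq panels of the study counts each embryo as a replicate and speaks of several litters, but the labels tie no library to a litter, so the p-values below measure the spread between these samples.

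Oxidative phosphorylation runs on 5 membrane complexes of the inner mitochondrial membrane. Complexes I and II pass electrons from NADH and succinate to ubiquinone, complex III passes them to cytochrome c, complex IV passes them to oxygen, and complex V makes ATP from the proton gradient. The mitochondrial genome codes for core proteins of every complex except complex II, and all other subunits are made from nuclear genes and imported. In the embryonic kidney, progenitors are known to depend heavily on glycolysis, whereas mature tubules rely on mitochondria.

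Values are FPKM, in which fragments are scaled by transcript length and library size. Levels of different genes are compared per length below, although a trend with coding length remained that differed between libraries. Summed FPKM ran from 795829 to 874966 in 9 libraries and was 1002638 in wild-type replicate 3. *Ntn1* itself was at 10.7 to 16.3 FPKM in Ntn1SPKO, 24.2 to 51.4 in Foxd1GC control and 27.1 to 46.3 in wild-type libraries, so the deleted gene was lowest in the libraries labelled as deleted. Kidney identity was checked with nephron progenitor, ureteric bud and stromal markers. Summed levels of the 5 nephron progenitor markers were 276 to 352 FPKM, and those of the 4 stromal markers were 141 to 203 FPKM. The 6 ureteric bud markers summed to 158 to 194 FPKM in 9 libraries and to 74.6 FPKM in Foxd1GC control replicate 3. In the same library the 13 skeletal muscle markers summed to 993 FPKM, against 22.8 to 222 FPKM in the other 9. Wild-type replicate 3 and Foxd1GC control replicate 3 therefore stand apart.

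The member with the highest FPKM in every library was *mt-Atp8* (chromosome M, 7766 to 7969), a small complex V subunit with 201 coding bases. It stood at 30579, 29416, 31162 and 29246 FPKM in wild-type, 29152, 27083 and 31628 FPKM in Foxd1GC control, and 34474, 29704 and 31114 FPKM in Ntn1SPKO libraries. The 3 groups overlapped. The catalytic subunit of complex IV, *mt-Co1* (chromosome M, 5328 to 6872), was at 3983, 3633, 3479 and 2782 FPKM in wild-type, 3330, 3368 and 2321 FPKM in Foxd1GC control, and 3973, 3410 and 3843 FPKM in Ntn1SPKO libraries. Its lowest library was Foxd1GC control replicate 3. Cytochrome b of complex III, *mt-Cytb* (chromosome M, 14145 to 15288), was at 2643, 2410, 2386 and 1912 FPKM in wild-type, 2059, 2123 and 1593 FPKM in Foxd1GC control, and 2510, 2170 and 2516 FPKM in Ntn1SPKO libraries, with the same library lowest.

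Complex I holds 7 mitochondrial-encoded subunits, which form its membrane arm. *mt-Nd1* (mean 3210 FPKM over 10 libraries) was the most even of them, at 2777 to 3692 FPKM. *mt-Nd3* (mean 3825 FPKM) was the least even, at 2218, 2386, 4660 and 4226 FPKM in wild-type, 4319, 2920 and 9215 FPKM in Foxd1GC control, and 2644, 3336 and 2324 FPKM in Ntn1SPKO libraries. *mt-Nd2* averaged 1125, *mt-Nd4* 1458, *mt-Nd5* 1041, *mt-Nd4l* 800 and *mt-Nd6* 538 FPKM. *mt-Nd6*, the one subunit read from the opposite strand, was lowest in Foxd1GC control replicate 3, at 249 FPKM, and highest in wild-type replicate 1, at 783 FPKM.

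For 3 members the listed values were far under those of their neighbours on the genome. *mt-Co2*, which carries the copper centre that receives electrons from cytochrome c, was listed at 0, 5.72, 5.59 and 17.4 FPKM in wild-type, 0, 5.65 and 0 FPKM in Foxd1GC control, and 0, 28.3 and 6.47 FPKM in Ntn1SPKO libraries. *mt-Atp6* averaged 555 FPKM, 54.7 times less than *mt-Atp8*, with which it shares a transcript, and *mt-Co3* averaged 534 FPKM. These genes have near-identical nuclear relatives. The nuclear genome holds a block of 4031 bases on chromosome 1 (24611535 to 24615565, minus strand, GRCm38) with 6 annotated unprocessed pseudogenes that are near-identical to *mt-Co2*, *mt-Atp6*, *mt-Co3*, *mt-Nd3*, *mt-Nd4l* and part of *mt-Nd4*, and these pseudogenes have entries of their own in the table. *Gm28661* matches *mt-Co2* at 681 of 681 aligned bases, *Gm10925* matches *mt-Atp6* at 678 of 678, *Gm28437* matches *mt-Co3* at 783 of 783, *Gm10222* matches *mt-Nd4l* at 294 of 294, *Gm28439* matches *mt-Nd4* over 876 of its 1378 bases, and *Gm28438* differs from *mt-Nd3* only by T3C, counted from the first base of the gene (*mt-Nd3* base first).

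The ends of *mt-Co2* and *Gm28661* and the starts of *mt-Nd3* and *Gm28438* show how little separates each pair. Capitals mark the 3 bases by which the annotated *mt-Co2* runs past the annotated end of the copy in the first pair, and the single differing base in the second pair. Positions are those of GRCm38, with *mt-Co2* at chrM:7634-7696 on the plus strand, *Gm28661* at chr1:24614885-24614944 on the minus strand, *mt-Nd3* at chrM:9459-9490 on the plus strand and *Gm28438* at chr1:24613088-24613119 on the minus strand.
mt-Co2: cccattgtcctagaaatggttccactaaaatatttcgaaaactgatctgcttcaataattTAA
Gm28661: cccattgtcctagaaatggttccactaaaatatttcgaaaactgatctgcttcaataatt
mt-Nd3: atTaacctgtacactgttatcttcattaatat
Gm28438: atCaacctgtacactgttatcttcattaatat

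The copies carried most of the signal. *Gm28661* was listed at 3837 to 5864 FPKM, *Gm10925* at 6235 to 9533 FPKM and *Gm28437* at 4872 to 6828 FPKM. Of the length-weighted sum of each pair, the copy held 99.4% to 100% for *mt-Co2*, 90.9% to 94.7% for *mt-Atp6*, 86.5% to 96.7% for *mt-Co3* and 80.5% to 86.4% for *mt-Nd4l*. The share was 50.4% to 67.5% for *mt-Nd3* and 1.60% to 12.8% for *mt-Nd4*. With the copies added, *mt-Co2* averaged 4995, *mt-Atp6* 7956, *mt-Co3* 6258, *mt-Nd3* 8887, *mt-Nd4l* 4856 and *mt-Nd4* 1630 FPKM. *mt-Atp6* thus stayed far under *mt-Atp8* (mean 30356 FPKM), although they share a transcript. FPKM may therefore not give the true relative amount of so short a gene, and the reason for the gap was not tested. No count of reads per locus was used, so how much of a copy's value came from chromosome 1 was not tested. The other 7 genes, *mt-Nd1*, *mt-Nd2*, *mt-Co1*, *mt-Atp8*, *mt-Nd5*, *mt-Nd6* and *mt-Cytb*, have no annotated copy in this block and are called genes without a copy below. Only annotated genes were searched. The stretch of the block between *Gm28661* and *Gm10925* was not, although *mt-Atp8* starts between *mt-Co2* and *mt-Atp6* on the mitochondrial genome. Other entries still share 31-base words with some of them, namely 63.9% of the words of *mt-Co1* (45.2% in *Gm13340* alone) and 16.8% of those of *mt-Nd5*, against 0% for *mt-Nd1*.

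**Figure D1:**
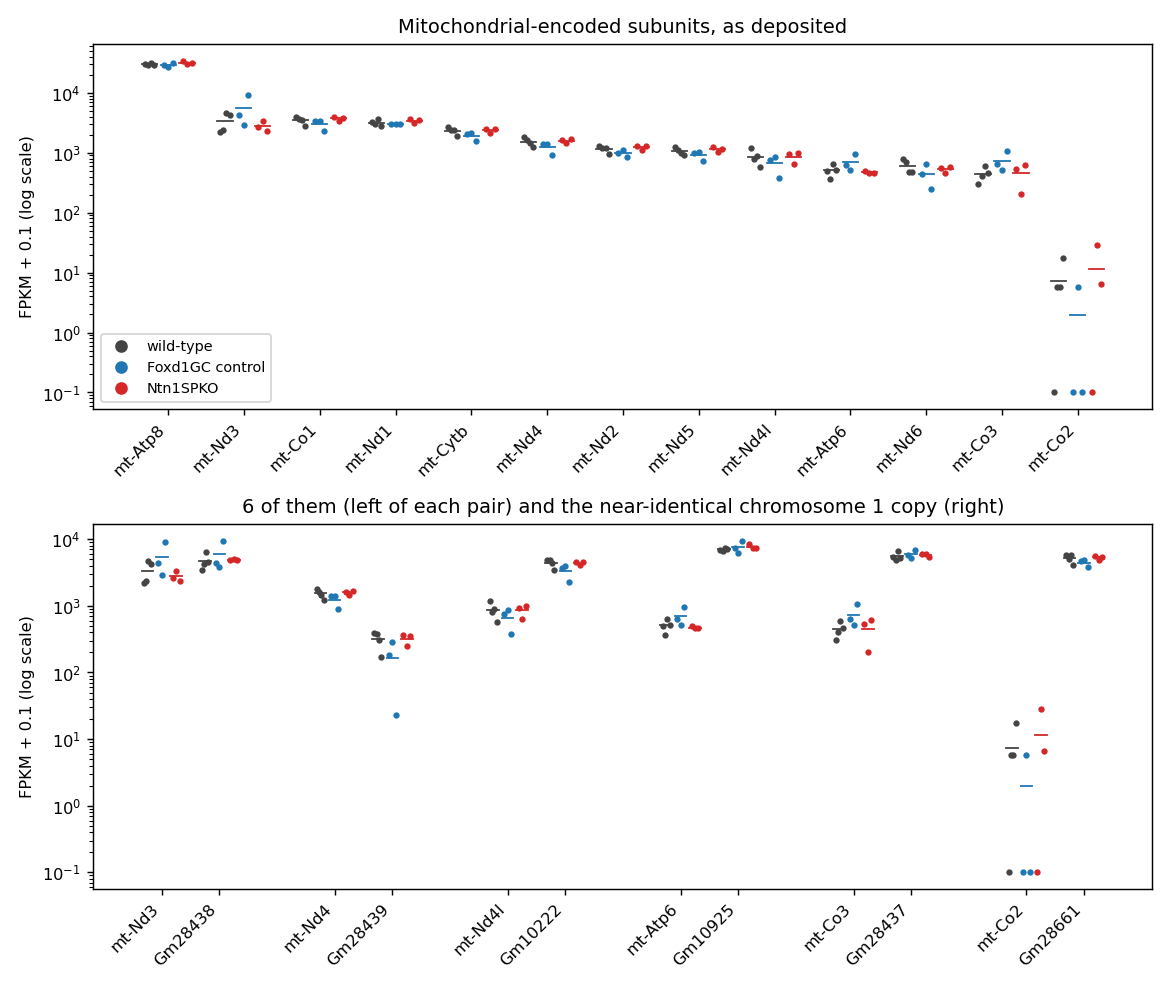
FPKM plus 0.1 on a log axis for the 13 mitochondrial-encoded subunits (top) and for 6 of them beside their near-identical chromosome 1 copies (bottom). Points are libraries and short lines are group means; *mt-Co2* lies at 0 to 28.3 FPKM and its copy *Gm28661* at 3837 to 5864 FPKM.

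By their medians, nuclear-encoded subunits were lower per length than mitochondrial-encoded ones, though *Cox6b1* (mean 1249 FPKM) was above *mt-Nd2*, *mt-Nd5* and *mt-Nd6*, which are genes without a copy. As deposited it was also above *mt-Nd4l*, *mt-Atp6*, *mt-Co3* and *mt-Co2*, but it was under each of them with their copies added. Medians of complexes III to V were above those of complexes I and II. With complexes assigned by gene name and over entries averaging 0.5 FPKM or more, the median of the means was 129 FPKM over 39 entries of complex I, 104 FPKM over 4 of complex II, 247 FPKM over 8 of complex III, 267 FPKM over 15 of complex IV and 416 FPKM over 17 of complex V. The 5 highest as deposited were *Cox6b1*, *Atp5b*, *Atp5l*, *Atp5md* and *Cox7b*. Near-identical relatives were not added here, and *Gm12338*, which contains the coding sequence of *Cox7c*, averaged 2490 FPKM. *Cox6b1*, which lies between the partners of the complex IV dimer, was at 1179, 1178, 1891 and 1187 FPKM in wild-type, 1171, 1202 and 1241 FPKM in Foxd1GC control, and 1096, 1187 and 1163 FPKM in Ntn1SPKO libraries. Wild-type replicate 3 was the high one, and the other 9 lay within 1096 to 1241 FPKM. *Atp5b*, the catalytic beta subunit of complex V, was at 1052, 1067, 1194 and 1018 FPKM in wild-type, 949, 1031 and 887 FPKM in Foxd1GC control, and 1062, 1054 and 1067 FPKM in Ntn1SPKO libraries. *Atp5l*, *Atp5md* and *Cox7b* averaged 904, 788 and 680 FPKM.

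Levels of core subunits differed between complexes. In complex I, *Ndufs1* and *Ndufv1*, which carry iron-sulphur clusters on the path of electrons from NADH, averaged 71.2 and 76.9 FPKM. In complex II, *Sdhc* (235 FPKM), a membrane anchor that helps to hold the haem, was over *Sdhb* (107 FPKM, iron-sulphur), *Sdha* (102 FPKM, flavin) and *Sdhd* (93.9 FPKM, the other anchor). In complex III, *Uqcrc1* averaged 127 FPKM and the Rieske protein gene *Uqcrfs1* 81.7 FPKM. In complex IV, *Cox4i1*, *Cox5a* and *Cox5b* averaged 586, 219 and 413 FPKM, and in complex V *Atp5a1*, the alpha subunit, averaged 396 FPKM against 1038 FPKM for *Atp5b*.

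Several nuclear subunits also have near-identical relatives, so that their split between entries is uncertain. Of 89 nuclear symbols with a sequence, 19 share at least 50% of their 31-base words with 1 other gene. The coding sequence of *Cox7c* is contained in *Gm12338*, whose entry averaged 2490 FPKM and held 81.0% of the summed FPKM of the pair. That of *Ndufb4* is contained in *Ndufb4c* (76.2 FPKM, 39.5% of the pair), and *Ndufab1* shares 92.3% of its words with *Gm4459* (108 FPKM, 33.1% of the pair).

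Isoform choice was one-sided at this stage. Several complex IV subunits exist as a widely used form and a form known from heart and skeletal muscle, lung or testis. The common form *Cox4i1* was 190 times the lung and oxygen-regulated form *Cox4i2* (3.09 FPKM), *Cox6a1* was 709 times the muscle form *Cox6a2* (0.374 FPKM), *Cox7a2* was 173 times the muscle form *Cox7a1* (1.54 FPKM) and *Cox8a* was 841 times the muscle form *Cox8b* (0.453 FPKM), each as a ratio of means over 10 libraries. The testis forms *Cox7b2* and *Cox8c* averaged 0.0229 FPKM and 0 FPKM, but *Cox6b2*, also known from testis, stood at 16.4 to 37.1 FPKM in every library, so that *Cox6b1* was only 54.1 times as high. *Ndufa4*, named for complex I but a subunit of complex IV, was 191 times *Ndufa4l2* (2.25 FPKM), its relative induced in low oxygen. The 3 genes for the same subunit c of complex V were closer together, with *Atp5g3* at 416, *Atp5g2* at 225 and *Atp5g1* at 163 FPKM, and this order held in each library. *Cox7a2l*, which takes part in respiratory supercomplexes, averaged 168 FPKM.

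The muscle forms moved with the muscle markers of Foxd1GC control replicate 3. *Cox6a2* was at 0.293, 0, 0.226 and 0.319 FPKM in wild-type, 0.557, 0.0761 and 1.85 FPKM in Foxd1GC control, and 0.157, 0 and 0.261 FPKM in Ntn1SPKO libraries, and *Cox8b* reached 2.73 FPKM in the same library against at most 0.585 FPKM elsewhere. *Cox7a1* did not follow, at 1.61 FPKM there and 0.936 to 2.38 FPKM in the other libraries. The part of muscle RNA in these values was not tested.

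**Figure D2:**
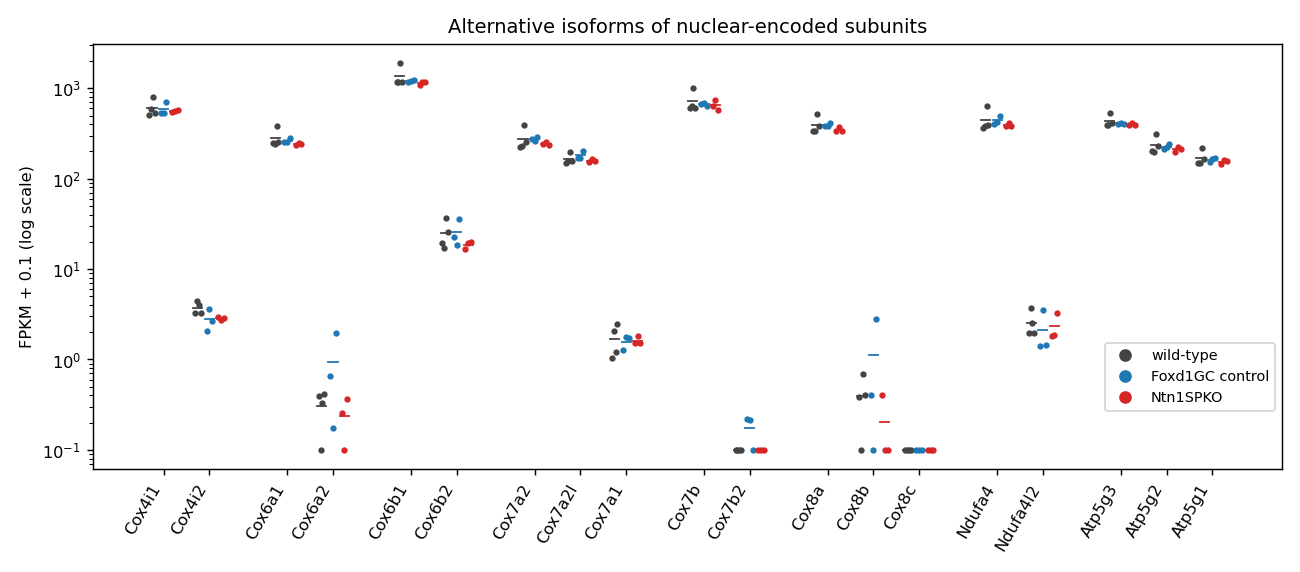
FPKM plus 0.1 on a log axis for alternative isoforms of nuclear-encoded subunits. Points are libraries and short lines are group means; common forms lie at 146 FPKM or more, and the muscle, lung and testis forms lie under 5 FPKM except *Cox6b2*.

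The nuclear members are spread over the genome, with 88 positioned entries on 19 chromosomes and at most 10 on any one (chromosome 7). What many share is words in their start-site regions that are recognised by regulators of respiratory genes. RefSeq windows of 300 bases (250 before to 50 after the start, GRCm38.p6) matched 67 of the nuclear members averaging 0.5 FPKM or more. In all, 4 words were searched on both strands, namely CGCATGCG (the core of the NRF-1 site), CCGGAAG (ETS factors such as GABPA), AAGATGGC (YY1) and AAGGTCA (oestrogen-related receptors), none of which contains another. At least 1 of the 4 was in 33 of the 67 windows (49.3%), in 26.7% of 10481 windows of genes averaging 0.5 FPKM or more, and in 17.3% of all 27025 windows. For the members and the expressed genes in turn, the shares were 11.9% and 3.91% for CGCATGCG, 23.9% and 17.8% for CCGGAAG, 13.4% and 4.56% for AAGATGGC, and 11.9% and 2.98% for AAGGTCA. A word in a window does not show that a factor binds there.

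Stretches of 30 bases before the start site are given for 4 members, picked with the windows in view as examples of the GABPA, receptor and NRF-1 words, with the word in capitals. Words nearer the start can lie after it, as in *Atp5k*, which also holds the GABPA word at base 13 and the receptor word at base 24 after the start. They lie on the minus strand at chr7:30626124-30626153 (*Cox6b1*), chr9:44920737-44920766 (*Atp5l*), chr5:108434430-108434459 (*Atp5k*) and chr16:37654405-37654434 (*Ndufb4*). The words are the GABPA word read on the other strand (CTTCCGG) in *Cox6b1*, the receptor word read on the other strand (TGACCTT) in *Atp5l*, the NRF-1 core in *Atp5k* and the receptor word in *Ndufb4*.
Cox6b1: tcctctcgcagCTTCCGGccagtcggaatt
Atp5l: gaggggcagccTGACCTTggaaatggggaa
Atp5k: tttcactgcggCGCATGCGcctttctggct
Ndufb4: tcctgagcctgAAGGTCAgactcgagaggg

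Mitochondrial-encoded transcripts were above nuclear ones in each library, by a factor that depended on how the copies were treated. The median FPKM over the 13 mitochondrial-encoded genes was 5.40 to 8.57 times that of the nuclear members as deposited, 15.8 to 26.4 times with the copies added, and 9.48 to 17.5 times for the 7 genes without a copy. As deposited, mitochondrial-encoded members made up 5.15% to 6.61% of all summed FPKM, nuclear members 2.40% to 2.96%, and the 6 copies a further 2.98% to 3.67%. Most of the mitochondrial-encoded sum was *mt-Atp8*. The sum was 44546 to 53987 FPKM with this gene and 16845 to 21302 FPKM without it, beside 19484 to 29700 FPKM for nuclear members. The ratio for genes without a copy was 17.5, 14.7, 10.8 and 11.6 in wild-type, 12.6, 12.5 and 9.48 in Foxd1GC control, and 15.6, 13.2 and 15.6 in Ntn1SPKO libraries. The Foxd1GC control libraries lay under all 3 Ntn1SPKO libraries, whereas the wild-type libraries overlapped both groups.

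Levels were then compared with each gene's own median library on the log2(FPKM+0.1) scale. Nuclear members lay between −0.07 and 0.08 in 9 libraries and at 0.53 in wild-type replicate 3, and that library held the highest value for 73 of the 83 nuclear members averaging 0.5 FPKM or more. The same count was not made over all genes. Short genes in general were also raised in that library, with medians of 0.45 under 300 coding bases and 0.32 from 300 to under 600. The 7 mitochondrial-encoded genes without a copy were at 0.21, 0.08, 0.05 and −0.17 in wild-type, −0.06, −0.05 and −0.49 in Foxd1GC control, and 0.20, −0.02 and 0.16 in Ntn1SPKO libraries. The library farthest from the others was therefore wild-type replicate 3 for nuclear members and Foxd1GC control replicate 3 for mitochondrial-encoded ones.

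Coding length moved with the nuclear values. In wild-type replicate 3 the median was 0.63 for the 21 nuclear members with under 300 coding bases, 0.54 for 40 with 300 to under 600 bases and 0.34 for 20 with 600 bases or more. All genes of the table showed the same order in that library, at 0.45 for 271 genes under 300 bases, 0.32 for 1410 genes of 300 to under 600 bases and −0.03 for 11411 genes of 600 bases or more. In Foxd1GC control replicate 3 the nuclear medians for these 3 length classes were 0.17, 0.08 and −0.05, and in Ntn1SPKO replicate 1 they were −0.11, −0.08 and 0.00. Spearman correlations between the log2 ratio and coding length, over 81 nuclear members that share each library, ran from −0.63 in wild-type replicate 3 to 0.48 in Ntn1SPKO replicate 3. They were 0.46, 0.33, −0.63 and −0.14 in wild-type, −0.44, −0.16 and −0.45 in Foxd1GC control, and 0.43, 0.04 and 0.48 in Ntn1SPKO libraries. Over 13092 genes of the table they were 0.23, 0.21, −0.59 and 0.14 in wild-type libraries. In Foxd1GC control libraries these were −0.02, −0.19 and −0.18, and in Ntn1SPKO libraries 0.20, 0.04 and 0.13. Fragment length and RNA quality were not in the files, and their part in this was not tested.

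**Figure D3:**
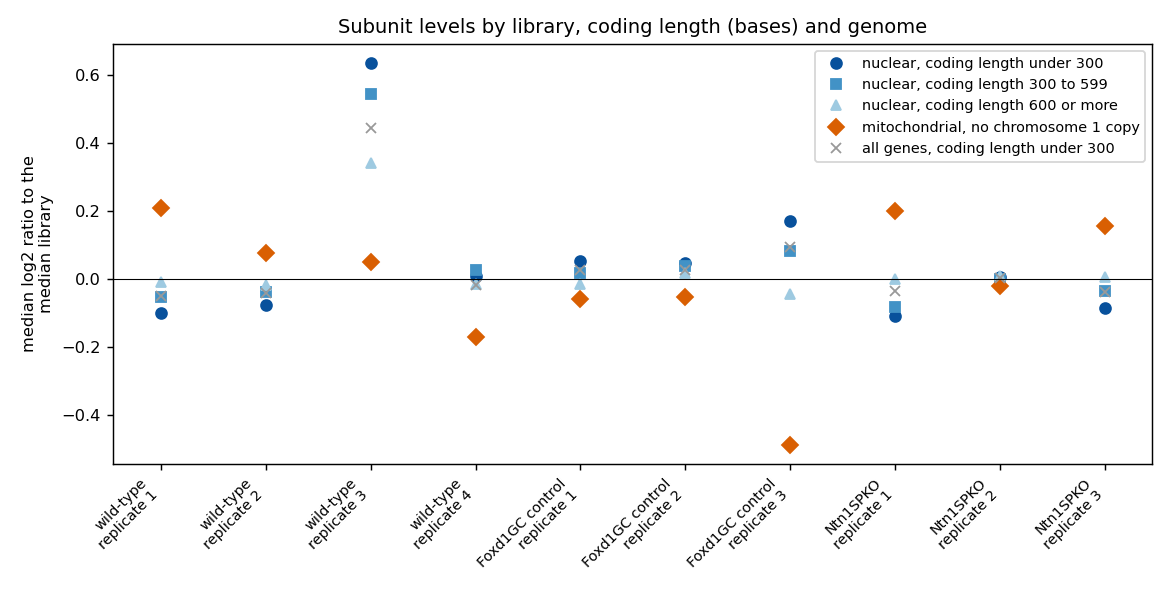
Median log2 ratio to each gene's median library, by library, for nuclear-encoded members in 3 classes of coding length, for the 7 mitochondrial-encoded genes without an annotated chromosome 1 copy and for all genes under 300 coding bases. Nuclear members reach 0.63 in wild-type replicate 3, and the mitochondrial-encoded genes reach −0.49 in Foxd1GC control replicate 3.

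Loss of stromal *Ntn1* was examined by comparing Ntn1SPKO with Foxd1GC control kidneys. No member passed an adjusted p of 0.1 (limma on log2(FPKM+0.1), Benjamini-Hochberg over all genes), against 10 of 14550 genes in all (0.0687%), and the smallest adjusted p among 105 members tested was 0.447. At an unadjusted p under 0.05, 25 members differed, with 5 higher and 20 lower in Ntn1SPKO, where 5.49% of all genes were higher and 5.17% lower. Mitochondrial-encoded and nuclear members lay on opposite sides. The median log2 fold change was 0.33 over the 13 mitochondrial-encoded genes and −0.08 over 84 nuclear members, beside 0.01 over all genes tested. The 7 mitochondrial-encoded genes without a copy were all higher in Ntn1SPKO, at 0.12 to 0.35. Of the 84 nuclear members 64 were lower, beside 7100 of 14550 genes tested. Short genes as a whole were mostly lower, with 200 of 271 under 300 coding bases and 948 of 1405 from 300 to under 600.

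Among the mitochondrial-encoded genes, *mt-Nd2* was at 1312, 1101 and 1273 FPKM in Ntn1SPKO and 981, 1101 and 841 FPKM in Foxd1GC control libraries, and the log2 fold change was 0.34 (SE 0.12, adjusted p = 0.447). The lowest Ntn1SPKO and the highest Foxd1GC control library met at 1101 FPKM. *mt-Nd1* (0.19, SE 0.07) and *mt-Cytb* (0.33, SE 0.13) also had an unadjusted p under 0.05 and were higher (adjusted p = 0.447 for both), and for both each Ntn1SPKO library was above each Foxd1GC control library. *mt-Co1*, *mt-Nd4* and *mt-Nd5* gave 0.33 (SE 0.16), 0.38 (SE 0.18) and 0.32 (SE 0.14), with an unadjusted p over 0.05 for each. These sizes leaned on Foxd1GC control replicate 3. Without it *mt-Nd2* gave 0.24, *mt-Cytb* 0.19, *mt-Co1* 0.16, *mt-Nd4* and *mt-Nd5* 0.17 and *mt-Nd6* −0.02 instead of 0.35, whereas *mt-Nd1* (0.20) and *mt-Atp8* (0.17 against 0.12) did not shrink. The median over all 13 was 0.33 with that library and 0.17 without it.

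Genes with a copy did not share a direction. *mt-Atp6* was at 492, 467 and 457 FPKM in Ntn1SPKO and 635, 519.7 and 955 FPKM in Foxd1GC control libraries, with no overlap and a log2 fold change of −0.53 (SE 0.21, adjusted p = 0.447). Without Foxd1GC control replicate 3, the highest library, it was −0.28. With *Gm10925* added it was −0.01 (adjusted p = 0.988). *mt-Co3* gave −0.80, but −0.50 without Foxd1GC control replicate 3, −0.30 without Ntn1SPKO replicate 2 and −0.08 with its copy added. *mt-Nd3* gave −0.83, but −0.38 without Foxd1GC control replicate 3 and −0.44 with its copy added. That control library held the highest value of all 3 genes. *mt-Co2* gave 2.78 (SE 2.48) on values near 0 (1.07 to 5.14 when 1 library was left out) and 0.27 (SE 0.11, adjusted p = 0.447) with *Gm28661* added.

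In complex I, *Ndufb4*, an accessory subunit of the membrane arm, had the smallest p of the members. It was at 88.9, 103 and 101 FPKM in Ntn1SPKO and 123, 125 and 146 FPKM in Foxd1GC control libraries, with no overlap and a log2 fold change of −0.43 (SE 0.09, adjusted p = 0.447). Its near-identical relative *Ndufb4c* overlapped between groups, at 84.6, 71.3 and 62.8 FPKM in Ntn1SPKO and 68.5, 72.5 and 100 FPKM in Foxd1GC control libraries. *Ndufb7* was at 88.0, 89.6 and 92.2 FPKM against 102, 102 and 102 FPKM (−0.18, SE 0.05, adjusted p = 0.447), with no overlap. *Ndufs1*, the long iron-sulphur subunit, went the other way at 74.6, 72.0 and 74.7 FPKM against 65.1, 65.2 and 66.2 FPKM (0.17, SE 0.05, adjusted p = 0.447). The assembly factor *Ndufaf3* was at 15.1, 16.5 and 13.4 FPKM against 18.2, 19.8 and 20.1 FPKM (−0.37, SE 0.10, adjusted p = 0.447), and *Ndufaf6* gave −0.84 (SE 0.30, adjusted p = 0.447) with overlapping groups.

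Complex II held a member on each side. *Sdhc* was at 212, 205 and 206 FPKM in Ntn1SPKO and 250.2, 236 and 234 FPKM in Foxd1GC control libraries (−0.21, SE 0.05, adjusted p = 0.447), whereas *Sdha* was at 112, 102 and 111 FPKM against 94.2, 98.4 and 91.5 FPKM (0.19, SE 0.06, adjusted p = 0.447). Neither pair of groups overlapped. *Sdhb* (−0.06, SE 0.06) and *Sdhd* (0.01, SE 0.06) overlapped.

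In complexes III to V the differences were small and mostly downward. Of 8 complex III members 5 were lower, of 16 complex IV members 13, and of 17 complex V members 15. Beside these, 7100 of 14550 genes tested were lower. Among short genes 200 of 271 under 300 coding bases and 948 of 1405 from 300 to under 600 were lower. *Cox7a2* (−0.18, SE 0.06) and *Cox8a* (−0.18, SE 0.06) were lower in each Ntn1SPKO library than in any Foxd1GC control library. *Atp5k*, the small subunit e that helps complex V to form dimers, was at 406, 473 and 441 FPKM in Ntn1SPKO and 602, 628 and 520.1 FPKM in Foxd1GC control libraries, with a log2 fold change of −0.40 (SE 0.09, adjusted p = 0.447). *Atp5b* (0.15, SE 0.07) and *Atp5a1* (0.12, SE 0.06), the long subunits of the catalytic head, were higher in each Ntn1SPKO library than in any Foxd1GC control library. *Cox6b1* (−0.07, SE 0.05), *Cox4i1* (−0.07, SE 0.11) and *Cox5b* (−0.03, SE 0.05) overlapped.

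The nuclear medians differed by coding length. The median log2 fold change was −0.17 for 22 nuclear members under 300 coding bases (20 lower, 8 of them at p under 0.05), −0.09 for 40 of 300 to under 600 bases (33 lower, 9 at p under 0.05) and −0.01 for 20 of 600 bases or more (10 lower, 0 at p under 0.05, and 2 higher at p under 0.05, *Ndufs1* and *Sdha*). All tested genes gave −0.12, −0.07 and 0.03 for the same classes. Of these, 200 of 271 were lower under 300 bases (37 at p under 0.05), 948 of 1405 from 300 to under 600 bases (140 at p under 0.05) and 5141 of 11439 from 600 bases (459 at p under 0.05, with 713 higher). With the trend with coding length over all genes taken out of each library, the median of the 84 nuclear members was −0.005 (40 higher and 44 lower), 2 were higher and 5 lower at p under 0.05, and the mitochondrial-encoded median was 0.31. The mitochondrial-encoded median thus moved by little under this correction, and the nuclear one moved to near 0.

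**Figure D4:**
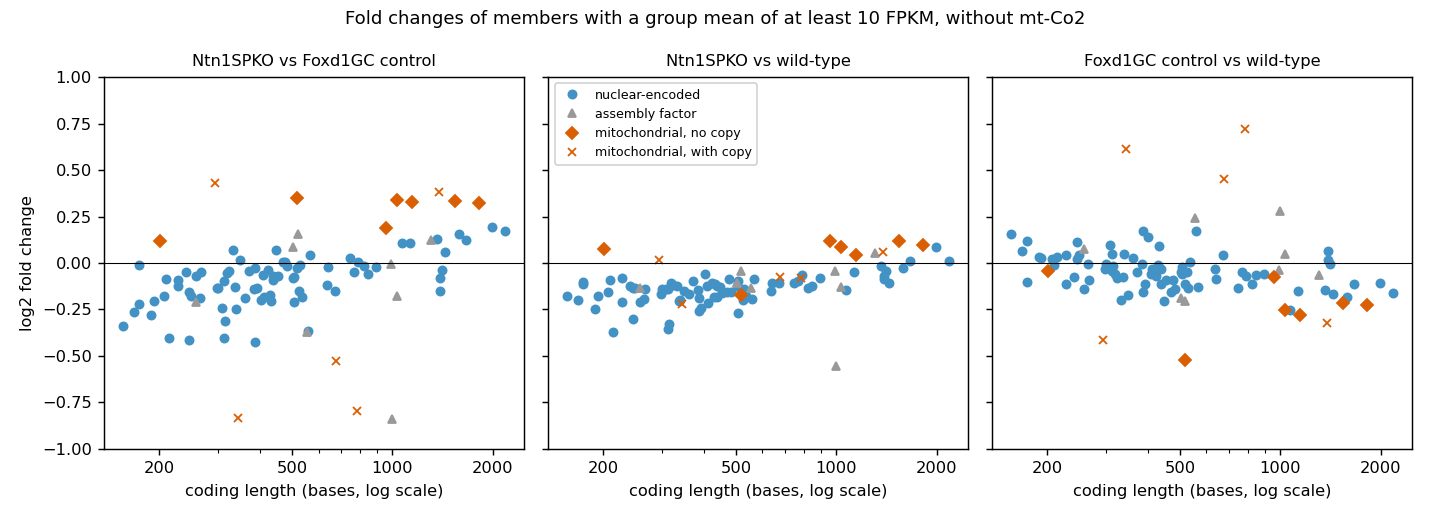
Log2 fold change (log2(FPKM+0.1) scale) against coding length in bases on a log axis, for members with a mean of at least 10 FPKM in a group, without *mt-Co2*, in the 3 comparisons. In Ntn1SPKO against Foxd1GC control, short nuclear members lie under 0 and long ones near or above it, while the 7 mitochondrial-encoded genes without a copy lie at 0.12 to 0.35.

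Ntn1SPKO and wild-type kidneys differ in both the Foxd1GC allele and *Ntn1*. No member passed an adjusted p of 0.1 (10 of 14432 genes did, 0.0693%). The smallest adjusted p among 104 members was 0.782. One member had an unadjusted p under 0.05, where 2.45% of all genes were higher and 3.31% lower. It was *Cox4i2*, at 2.84, 2.66 and 2.79 FPKM in Ntn1SPKO and 3.13, 4.33, 3.94 and 3.16 FPKM in wild-type libraries, with no overlap and a log2 fold change of −0.37 (SE 0.14, adjusted p = 0.782). Its unadjusted p stayed under 0.05 without wild-type replicate 1 or 4 but not without any other library. The median was 0.04 over mitochondrial-encoded and −0.13 over 83 nuclear members, beside 0.00 over all genes. Of the 83 nuclear members 78 were lower, beside 7060 of 14432 genes tested. Short genes as a whole were mostly lower, with 208 of 269 under 300 coding bases and 1071 of 1402 from 300 to under 600. Without wild-type replicate 3 the nuclear median was −0.002, and without wild-type replicate 4 the mitochondrial-encoded median was −0.041. With the length trend removed and all libraries kept, the nuclear median was −0.06 and 75 nuclear members were lower. The next smallest p belonged to *Sdhc* (−0.27, SE 0.12), *Ndufaf6* (−0.56, SE 0.27), *Ndufa6* (−0.24, SE 0.12) and *Atp5k* (−0.37, SE 0.20), and of these the groups did not overlap for *Atp5k*. Without wild-type replicate 3 they gave −0.18, −0.49, −0.15 and −0.18 in that order.

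Foxd1GC control and wild-type kidneys differ in the Foxd1GC allele. No member passed an adjusted p of 0.1 (1 of 14594 genes did, 0.00685%), and the smallest adjusted p was 0.665. At an unadjusted p under 0.05, where 3.84% of all genes were higher and 3.23% lower, 1 member differed, *mt-Co3*, at 643, 514 and 1061 FPKM in Foxd1GC control and 303, 404, 598 and 460.4 FPKM in wild-type libraries (0.72, SE 0.29, adjusted p = 0.665). Without Foxd1GC control replicate 3 it gave 0.42, and with *Gm28437* added it gave 0.16 (adjusted p = 0.779). The mitochondrial-encoded median was −0.23 and the nuclear median −0.05, beside −0.01 over all genes. Without Foxd1GC control replicate 3 the mitochondrial-encoded median was −0.08, and without wild-type replicate 3 the nuclear median was 0.09. *Cox4i2* (−0.45, SE 0.21) and *Ndufa10* (−0.25, SE 0.12) overlapped between groups, whereas *Ndufs1* (−0.16, SE 0.09) was lower in each control library than in any wild-type library. Leaving out 1 library took *Cox4i2* to −0.27 (Foxd1GC control replicate 1), *Ndufa10* to −0.16 (Foxd1GC control replicate 3) and *Ndufs1* to −0.09 (wild-type replicate 3). These 3 comparisons share libraries in pairs, so that their values are not independent of each other.

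Other genes of energy metabolism gave no adjusted p under 0.1 in any of the 3 comparisons. For Ntn1SPKO against Foxd1GC control, 7450 of all 14550 genes tested were above 0. At an unadjusted p under 0.05, 5.49% of them were higher and 5.17% lower. Of 11439 genes with 600 coding bases or more, 713 were higher and 459 lower at this level, and the lists were not corrected for coding length. Between Ntn1SPKO and Foxd1GC control, 30 other assembly factors and electron carriers had a median of 0.01, with 2 higher and 2 lower at an unadjusted p under 0.05. The 27 genes of mitochondrial genome expression and biogenesis had a median of 0.11 with 6 higher and 2 lower, the 16 genes of the TCA cycle and pyruvate dehydrogenase had a median of 0.11 with 16 above 0 and 4 at p under 0.05, and 17 glycolysis entries had a median of 0.12 with 15 above 0 and 5 at p under 0.05. The smallest p of these lists belonged to *Gabpa*, an ETS factor known to act on respiratory genes (0.46, SE 0.08, adjusted p = 0.416), and to *Polg*, the mitochondrial DNA polymerase (0.74, SE 0.15, adjusted p = 0.447), both chosen after their values were seen. In Ntn1SPKO against wild-type the medians of the 4 lists were −0.04, −0.02, −0.003 and 0.12, and in Foxd1GC control against wild-type they were −0.08, −0.10, −0.15 and −0.04.

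Markers of other cells moved alongside these values. In Ntn1SPKO against Foxd1GC control, 5.17% of all genes were lower at an unadjusted p under 0.05. Between Ntn1SPKO and Foxd1GC control, all 11 tested skeletal muscle markers were lower (median −2.53, 5 at p under 0.05), all 4 liver markers were lower (median −1.75, 4 at p under 0.05), and 5 erythroid (median −0.81), 4 macrophage (−0.41), 4 stromal (−0.34) and 2 smooth muscle (−0.41) markers were lower, whereas 6 ureteric bud (0.73), 4 of 5 nephron progenitor (0.18) and 3 of 5 endothelial (0.02) markers were higher. Adrenal and gonadal markers were near 0 in each library, summing to at most 1.10 FPKM. Summed skeletal muscle markers were at 81.9, 22.8 and 63.4 FPKM in Ntn1SPKO, 222, 70.5 and 993 FPKM in Foxd1GC control and 123 to 214 FPKM in wild-type libraries, and summed erythroid markers were at 1635, 1473 and 6083, at 4123, 2483 and 5888, and at 1457 to 2738 FPKM. The part of these cells in the subunit values was not tested.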

How the data were processed

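Whole kidneys were measured by RNA-seq in 10 libraries. According to the methods of the study, the authors quantified reads with Salmon against coding sequences of Ensembl GRCm38, imported them with tximport and used DESeq2 for differential expression. The deposited values nevertheless include entries for pseudogenes, among them the chromosome 1 copies, so the exact index is not known. How the FPKM were computed is not given in the sources used here. The deposited values are FPKM, used as given. Size factors by median of ratios, from the 16550 genes that no library lists at 0, were 1.00175 throughout, so no further scaling was applied. For each pair of groups, genes averaging 0.5 FPKM or more were compared on the log2(FPKM+0.1) scale with limma 3.58.1 in R 4.3.3 (eBayes with trend, two-sided, Benjamini-Hochberg), with a call at adjusted p under 0.1 and no fold limit. A log2 fold change on this scale understates changes of low genes. Low values showed no clear step for 1 read (the most frequent value held 7 to 13 of 258 to 337 low values), so depth per library is unknown and no counting interval is given.

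The members, the gene lists and the rule for named genes were chosen with earlier results of these data known. Named genes were all mitochondrial-encoded members, *Sdha* to *Sdhd* with 10 core subunits, alternative isoforms, the 5 highest and 5 lowest nuclear members above 0.5 FPKM and the 5 smallest p of each comparison. Not all of them are reported here. Positions, coding lengths and 31-base words came from GENCODE M21 (GRCm38) for 109 members by symbol and 2 by an older symbol, start-site windows from RefSeq. The copies were added to their genes weighted by length. Alternatives were another pseudocount, filter or scaling, no trend, all libraries in one fit, a replicate block (statmod 1.5.0), a 2-fold limit and leaving out each library. Adding the copies, removing the length trend by loess in each library, and leaving out both libraries that stand apart were chosen after seeing the data. The fit was tested on simulated data. Same-numbered libraries were not paired (correlations of their deviations −0.04 to 0.08).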

Additional observations from a re-analysis of the deposited data

Results flagged for a closer look

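Among the 4 wild-type libraries, a value was listed when its gap to the nearest other library took up most of the range of the group, by Dixon's criterion at the 95% level. This held for 16 of 66 values examined, and for 15 of the 16 the library was wild-type replicate 3. Chance lists a single value about 1 time in 20. The 66 values share the same 4 libraries, so their count cannot be read against that rate. Its summed FPKM was 1002638, and the next library had 809645. Its median over nuclear members was 129 FPKM for complex II (next 103), 388 FPKM for complex IV (next 256) and 572 FPKM for complex V (next 408).

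Single nuclear members showed the same library at the top. *Cox6b1* was at 1891 FPKM (next 1187), *Cox7b* at 1011 (next 637), *Atp5k* at 842 (next 519.9), *Ndufa4* at 640.4 (next 393) and *Atp5g3* at 536 (next 408). *Cox6a1* was at 387 FPKM (next 255), *Cox5a* at 294 (next 221), *Sdhb* at 142 (next 105), *Ndufb7* at 138 (next 96.0) and *Uqcrfs1* at 111 (next 80.1). *Cox6c2*, a processed pseudogene, was at 2.16 FPKM there and listed at 0 in the other wild-type libraries. *Ndufv1* was the exception, at 64.3 FPKM in wild-type replicate 2, under 80.0 FPKM in the next library. Over all 83 nuclear members averaging 0.5 FPKM or more, 39 met the criterion, 38 of them with wild-type replicate 3. Genes outside the members were not put through this criterion, so the count has no share over all genes beside it. In that library the median log2 ratio to each gene's median library was 0.45 over all genes under 300 coding bases. It was 0.32 from 300 to under 600 bases and −0.03 from 600 bases. The cause was not tested.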

How the results depend on the processing

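No member passed the adjusted threshold under any alternative that was run. Between Ntn1SPKO and Foxd1GC control, the 25 members at an unadjusted p under 0.05 became 16 with no intensity trend, 4 with all 10 libraries in one fit, 13 with the length trend removed and 10 to 42 when 1 library was left out (10 without Ntn1SPKO replicate 1, 13 without Ntn1SPKO replicate 3, 42 without Foxd1GC control replicate 2). The nuclear median was −0.041 and −0.035 after rescaling to one total, with and without mitochondrial entries, and −0.0048 with the length trend removed, and it was −0.11 to −0.051 when 1 library was left out. The same range was 0.17 to 0.41 for the mitochondrial-encoded median and 0.22 to 0.50 for the difference between both medians. *mt-Nd6* ranged from −0.021 to 0.66 in these fits.

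Between Ntn1SPKO and wild-type, the 1 such member became 2 after rescaling to one total or by quantiles, 4 with the length trend removed and 0 to 3 when 1 library was left out. *mt-Co2* turned positive at 0.17 (pseudocount 1), 0.0046 and 0.0089 (rescaling), 0.038 (copies added) and in 4 fits without 1 library (range −1.77 to 2.31). *mt-Atp6* and *mt-Co3* turned to 0.0025 and 0.0036 (quantiles) and 0.12 and 0.086 (copies added), with ranges of −0.22 to 0.050 and −0.38 to 0.41 when 1 library was left out. The sign also depended on 1 library for *mt-Nd4l* (−0.16 to 0.22), *mt-Nd4* (−0.041 to 0.14) and *mt-Cytb* (−0.050 to 0.11).

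Between Foxd1GC control and wild-type, the 1 member became 2 with no filter or after rescaling to one total, 4 by quantiles, 0 with no trend or with the copies added, 10 without both libraries that stand apart and 0 to 14 when 1 library was left out (14 without wild-type replicate 3, 8 without Foxd1GC control replicate 2). With the replicate number as a block it was 2, while the block left 25 and 1 in the other comparisons. *mt-Atp8* ranged from −0.099 to 0.013 in that comparison when 1 library was left out. The causes were not tested. With no read counts, the precision of low values such as *mt-Co2* is unknown.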
